A study of Homo sapiens with 8 samples.

Results

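The genes described here encode the proteins of the large, 60S subunit of the cytosolic ribosome. They were chosen by name, with no measured value: 45 genes, all found among the 20033 protein-coding genes placed on chromosomes 1 to 22, X and Y by RefSeq. For each gene, every peak that overlapped the annotated span or the 2 kb on either side of it was counted in each of 8 peak lists, and a peak that overlapped a peak of either IgG list was marked. The lists came from CUT&RUN in HCT-116, an established human colorectal carcinoma cell line. In CUT&RUN an antibody held on chromatin directs a nuclease, and the released DNA is sequenced. SETD3 KO cells, in libraries named KO1 and KO2, were set against control cells. In both genotypes 1 antibody was directed at BRG1, the ATPase of SWI/SNF chromatin remodellers encoded by SMARCA4, and the other at Flag-tagged wild type actin. Each antibody had 2 KO libraries and 1 control library, and control cells also gave 1 IgG library per arm. SETD3 is the methyltransferase that modifies a histidine of actin. Nothing in the labels tells if KO1 and KO2 were different clones or which promoter drove Flag-actin. The IgG library of the Flag arm is also titled Empty, and whether its cells held the construct is not stated.

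The large subunit joins amino acids in its peptidyl transferase centre, and the new chain leaves through an exit tunnel. Its genes are short, are transcribed at a high rate in growing cells and often carry small nucleolar RNAs in their introns. Many of their transcripts begin with a C followed by a pyrimidine tract, through which the mTOR pathway controls their translation. SWI/SNF moves nucleosomes at promoters and enhancers, and actin is a subunit of these complexes.

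Promoter windows were available for 38 of the 45 genes. In the BRG1 control 14 of these 38 genes had a peak on a window. A gene with several annotated starts has several windows, and it counted if any of them held the peak or motif. The 250 bases before the annotated start are printed for 8 genes, written 5′ to 3′ on the strand of the gene, from RefSeq on build GRCh38.p14. Capitals mark CGGAAG or its reverse complement CTTCCG, the core bound by ETS factors. The first 5 are the genes whose promoter window held the BRG1 control peaks of highest total signal. They lie at chr19:48619179-48619428 on the minus strand (RPL18), chr12:56116383-56116632 on the plus strand (RPL41), chr13:27251308-27251557 on the plus strand (RPL21), chr16:89560432-89560681 on the plus strand (RPL13) and chr19:49487358-49487607 on the plus strand (RPL13A).
RPL18: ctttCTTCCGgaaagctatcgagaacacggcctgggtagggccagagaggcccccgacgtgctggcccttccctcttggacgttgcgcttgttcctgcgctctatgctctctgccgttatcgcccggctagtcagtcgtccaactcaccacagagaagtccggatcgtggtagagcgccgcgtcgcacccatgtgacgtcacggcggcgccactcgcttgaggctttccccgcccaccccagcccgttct
RPL41: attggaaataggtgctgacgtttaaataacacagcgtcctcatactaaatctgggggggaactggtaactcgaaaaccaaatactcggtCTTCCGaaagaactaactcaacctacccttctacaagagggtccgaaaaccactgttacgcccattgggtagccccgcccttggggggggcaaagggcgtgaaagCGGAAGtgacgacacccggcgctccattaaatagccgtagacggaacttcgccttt
RPL21: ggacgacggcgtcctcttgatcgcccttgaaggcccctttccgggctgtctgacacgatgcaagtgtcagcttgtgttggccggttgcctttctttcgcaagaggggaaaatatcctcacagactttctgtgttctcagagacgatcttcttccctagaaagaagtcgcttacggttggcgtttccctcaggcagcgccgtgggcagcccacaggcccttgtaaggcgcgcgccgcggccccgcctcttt
RPL13: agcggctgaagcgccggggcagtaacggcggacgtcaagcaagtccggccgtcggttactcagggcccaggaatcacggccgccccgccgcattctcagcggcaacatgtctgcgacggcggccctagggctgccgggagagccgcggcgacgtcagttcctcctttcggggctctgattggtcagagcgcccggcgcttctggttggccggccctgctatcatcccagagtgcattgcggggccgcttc
RPL13A: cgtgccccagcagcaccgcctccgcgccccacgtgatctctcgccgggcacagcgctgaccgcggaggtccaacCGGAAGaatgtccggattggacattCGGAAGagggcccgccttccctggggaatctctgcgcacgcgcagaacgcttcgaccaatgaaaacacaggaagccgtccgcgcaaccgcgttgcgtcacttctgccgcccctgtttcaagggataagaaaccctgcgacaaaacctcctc

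The other 3 belong to the shortest genes with no peak in any of the 8 lists, shown for contrast. They lie at chr19:5690045-5690294 on the plus strand (RPL36), chr3:51995896-51996145 on the minus strand (RPL29) and chr6:35468151-35468400 on the plus strand (RPL10A).
RPL36: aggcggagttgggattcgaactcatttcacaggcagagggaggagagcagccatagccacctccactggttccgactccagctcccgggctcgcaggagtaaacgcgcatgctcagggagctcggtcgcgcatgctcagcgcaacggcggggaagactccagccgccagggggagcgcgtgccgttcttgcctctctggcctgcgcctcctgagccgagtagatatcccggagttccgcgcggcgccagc
RPL29: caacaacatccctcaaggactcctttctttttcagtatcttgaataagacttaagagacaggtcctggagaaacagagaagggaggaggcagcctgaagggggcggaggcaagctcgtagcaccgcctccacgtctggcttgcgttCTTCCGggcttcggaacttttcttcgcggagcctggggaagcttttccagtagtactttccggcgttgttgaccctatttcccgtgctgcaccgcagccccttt
RPL10A: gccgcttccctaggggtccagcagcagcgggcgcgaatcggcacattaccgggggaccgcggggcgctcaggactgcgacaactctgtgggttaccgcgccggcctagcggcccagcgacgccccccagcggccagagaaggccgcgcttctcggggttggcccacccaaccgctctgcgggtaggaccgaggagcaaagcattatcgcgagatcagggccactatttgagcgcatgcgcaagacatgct

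The 5 sequences with a BRG1 control peak differ among themselves. RPL41 and RPL13A each hold 2 marked cores and RPL18 holds 1, while RPL21 and RPL13 hold 0. Of the 3 sequences with no peak, RPL29 holds 1 core, and RPL36 and RPL10A hold 0. The core, on either strand, was found at 21 of the 38 genes, or 55.3%, against 25.7% of the 15842 coding genes with a window. It was found at 10 of the 14 genes with a BRG1 control peak on a window and at 11 of the 24 without. Among the other 4 motifs, each searched on both strands, were the CCAAT box with its reverse complement ATTGG and the TATA box TATAAA with its reverse complement TTTATA. TGACGTCA, which is its own reverse complement, and TGACTCA with its reverse complement TGAGTCA were the others. None of the 5 motifs contains another. CCAAT was found at 16 of the 38 genes, or 42.1%, against 40.2% of all genes with a window. TATAAA was in 3 of 38, against 11.9% of all. TGACGTCA, the cyclic AMP response element, was found at 3 of 38 genes, all 3 with a BRG1 control peak on a window, against 2.73% of all. TGACTCA, the AP-1 site, was in 1 of 38, against 4.58% of all. A transcript start of C followed by 4 pyrimidines was annotated for 28 of the 38 genes, or 73.7%, against 6.24% of all. The median GC content, averaged over the windows of a gene, was 58.6% over the 38 genes and 62.0% over all genes with a window. It was 62.2% in the 14 genes with a BRG1 control peak on a window and 56.3% in the 24 without.

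The lists of the series differed in ways that touch every count below. After other contigs were removed the BRG1 lists held 23784 peaks in KO1, 32038 in KO2 and 53270 in the control, and the Flag-actin lists 27249, 35892 and 38902. The IgG lists held 24755 peaks in the BRG1 arm and 20303 in the Flag arm. Peaks that overlapped an IgG list made up 71.4%, 60.1% and 36.9% of the BRG1 KO1, KO2 and control lists, and 55.5%, 48.5% and 34.5% of the Flag-actin ones. The lowest total signal kept was 25771 in the Flag-actin control, against 4164 to 6228 in the other 7 lists. How far list length, threshold and IgG background set the counts of these genes was not tested, apart from the counts without IgG sites and from lists of equal length given below. Reads per library are unknown from these files. Of 8 markers of colorectal epithelium, 3 had a peak in BRG1 KO1, 4 in KO2 and 5 in the control. Of 7 fibroblast and blood markers, 4, 4 and 5 did, against 34.9%, 44.6% and 61.9% of all coding genes. Free of IgG these counts were 1, 3 and 5 of the epithelial markers and 2, 2 and 3 of the others. For Flag-actin 4, 6 and 4 of the epithelial markers and 3, 4 and 4 of the others had a peak, against 39%, 47.4% and 50.3%. So few genes cannot show whether peak presence separates the cell types. The peak lists hold no measure of SETD3 protein by which the KO labels could be checked.

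Peaks at 5 of the genes sat on DNA that the IgG libraries also recovered. RPL4, RPL6, RPL23, RPL38 and RPL39 each had a peak in both IgG lists, and no other of the 45 genes had a peak in either. At RPL6, a peak of 50 or 60 bp at chr12:112403941-112404000, 1181 to 1191 bases beyond the 3′ end of the gene, was in all 8 lists. In each list a peak has a percentile, the share of the list's peaks whose total signal was at or below its own, which describes standing within that list and gives no amount. The RPL6 peak stood at percentile 72.4 in BRG1 KO1, 80.4 in KO2, 90.0 in the control and 74.9 in the IgG list. In the Flag arm it stood at 79.9 in KO1, 87.0 in KO2, 92.8 in the control and 73.6 in the IgG list. It was high in every library with every antibody. The site at RPL23 (chr17:38847591-38847630, 230 bases beyond one gene end) stood at 73.8 in BRG1 KO1, 82.3 in KO2, 89.8 in the control and 79.6 in the IgG list. It stood at 80.6 in Flag-actin KO1, 88.9 in KO2, 97.1 in the control and 73.4 in the Flag arm IgG list. RPL23 is a protein of the face that joins the small subunit, where the factor eIF6 binds.

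The other 3 IgG sites stood lower in each list that held them. At RPL4, which lines the exit tunnel, a site inside the gene (chr15:66499991-66500050) stood at 54.6 in BRG1 KO1, 65.1 in KO2, 82.8 in the control and 33.7 in the IgG list. It stood at 54.8, 67.1, 72.9 and 46.1 in the Flag-actin KO1, KO2, control and IgG lists. At RPL39, another protein of the tunnel, the site at chrX:119788671-119788710 was missing from BRG1 KO1 and stood at 45.3 in KO2, 70.3 in the control and 41.6 in the IgG list. In the Flag arm it stood at 68.7 in KO1, 66.5 in KO2, 82.4 in the control and 55.2 in the IgG list. RPL38, whose loss in mice alters the translation of Hox messenger RNAs, had a site 1736 to 1806 bases beyond its 3′ end. That site stood at 40.8 in BRG1 KO1, 56.2 in KO2, 58.4 in the control and 3.70 in the IgG list. It stood at 54.8 in Flag-actin KO1 and 14.5 in the Flag arm IgG list and was in neither the KO2 nor the control Flag-actin list. The plot of peaks by gene and library shows these 5 genes in its top rows.

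**Figure D1:**
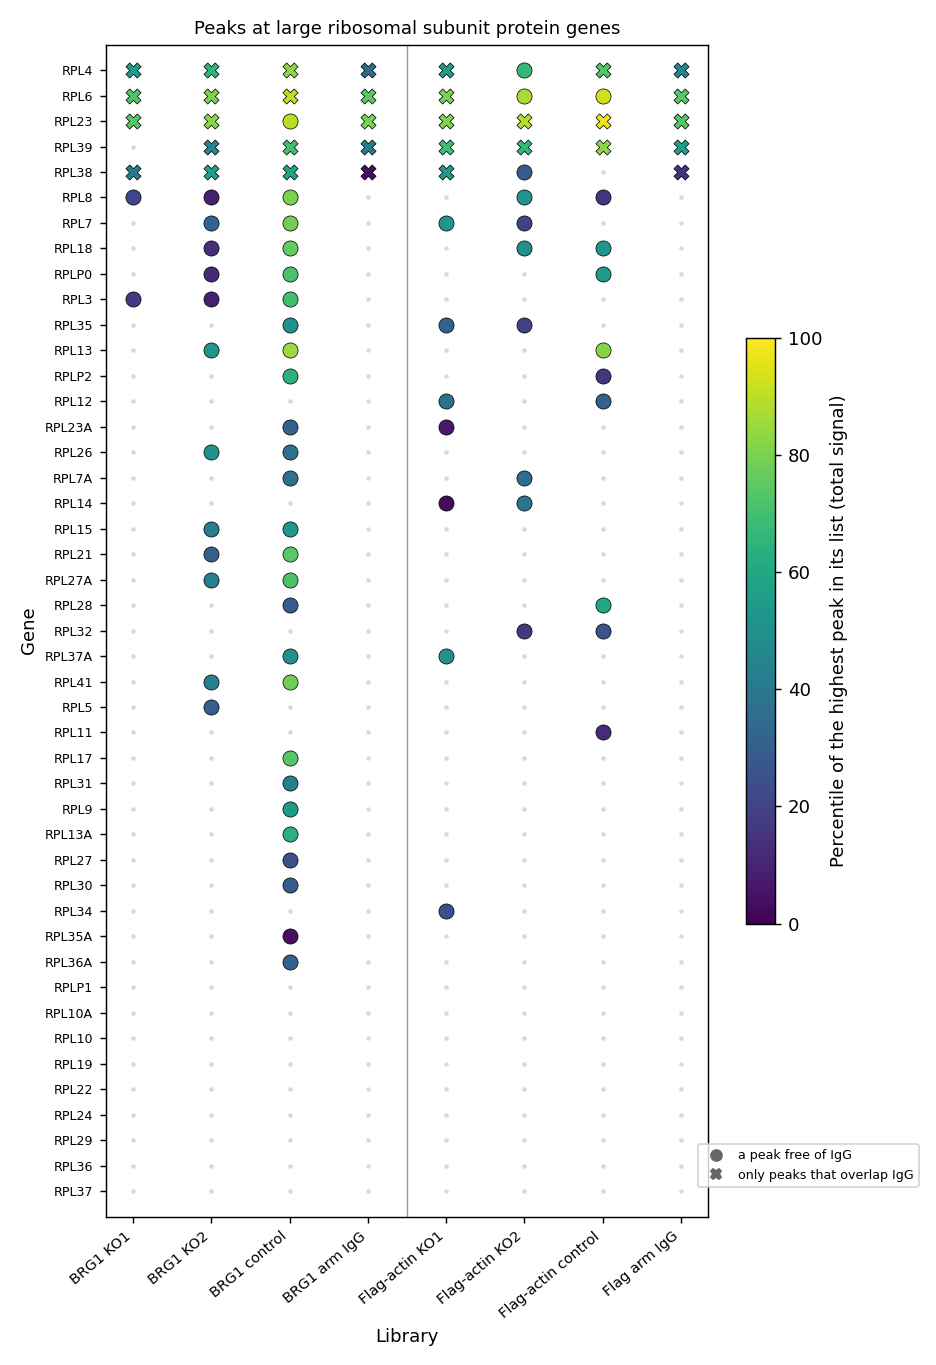
Peaks at the 45 large subunit protein genes (rows) in the 8 libraries (columns). Filled symbols are genes with a peak within 2 kb of their span, coloured by the percentile of the highest peak within its own list; crosses are genes whose peaks all overlap an IgG peak, and small grey dots are genes with no peak. The BRG1 control column holds 30 genes, KO1 6 and KO2 17, and the 9 genes at the bottom have no peak in any list.

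BRG1 peaks were present at fewer large subunit genes in both KO libraries than in the control. In KO1 6 of the 45 genes had a peak, in KO2 17, and in the control 30. Over all coding genes the shares with a peak were 34.9% in KO1, 44.6% in KO2 and 61.9% in the control. The KO mean was 25.6% ± 17.3 of the genes (SD, n = 2) and the control value 66.7% (n = 1), a difference of -41.1 percentage points. The difference was larger than the SD between the KO libraries, and both KO values lay below the control. With every list of the arm shortened to the same number of peaks the difference was -16.7 percentage points, which is within that SD. Over the gene span alone, without the 2 kb on either side, 1 gene had a peak in KO1, 5 in KO2 and 16 in the control. The difference was then -28.9 percentage points, and no share over all coding genes was taken for the span alone. With 2 libraries against 1, no permutation test over libraries can go below a p of 1 in 3, and none was run. The BRG1 arm IgG list had a peak at 5 of the genes, or 11.1%, against 33.2% of coding genes. Since longer genes catch more peaks, the shares were also taken over the 8343 coding genes no longer than RPL31, the longest of the 45 at 17436 bp. Among those, 13.6% had a peak in KO1, 22.7% in KO2, 41.1% in the control and 11.4% in the IgG list. The large subunit genes thus stood beside short genes in KO1 and IgG, and had the higher share in KO2 and in the control, which is a description with no test.

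**Figure D2:**
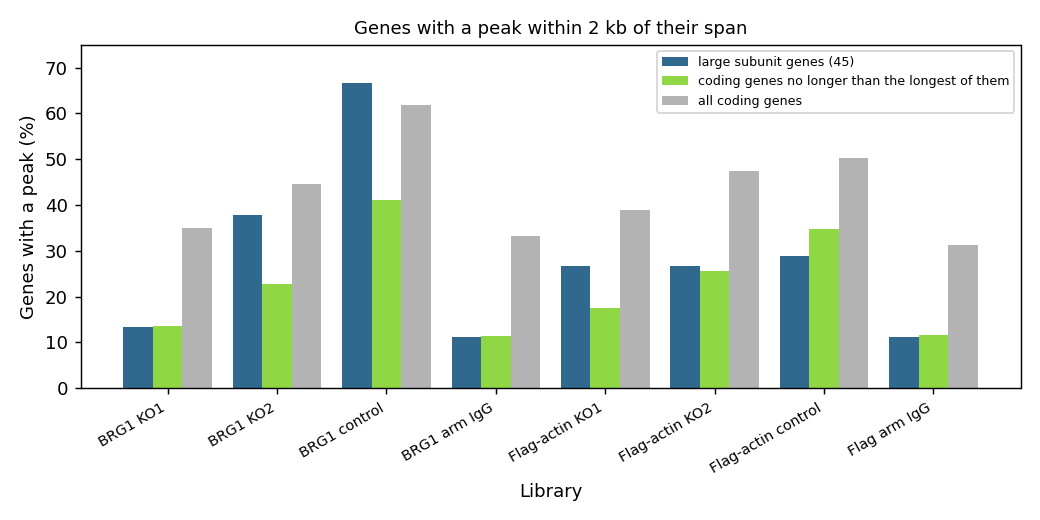
Percentage of genes with a peak within 2 kb of their span (y axis) in each library (x axis), for the 45 large subunit genes (blue), the 8343 coding genes no longer than the longest of them (green) and all 20033 coding genes (grey). Each bar is 1 library; for BRG1 the blue bars read 13.3% in KO1, 37.8% in KO2, 66.7% in the control and 11.1% in IgG.

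By pattern, 14 genes had a BRG1 peak in the control and none in either KO list, or 31.1%, against a background of 18.5% of all coding genes. Taken over genes with a control peak, the share with none in either KO was 14 of 30, or 46.7%, against 29.9% of all coding genes and 49.6% of the short ones. The share among large subunit genes was close to that of genes of like length. A control peak together with a KO2 peak alone was found at 10 genes, against a background of 10.6%, and a control peak with a KO1 peak alone at 0, against 2.92%. All 3 lists had a peak at 6 genes, against 29.9% of coding genes, and 4 of those 6 were the IgG sites at RPL4, RPL6, RPL23 and RPL38. KO1 alone had a peak at 0 genes, against 1.25%, and KO2 alone at 1, RPL5, against 3.25%. No gene had a peak in both KO lists and none in the control, against 0.859% of coding genes, and the same was so in lists of equal length, against 3.02%. With peaks that overlap an IgG list removed, 2 genes had a peak in KO1, 12 in KO2 and 26 in the control, against 15.7%, 28.3% and 52.4% of coding genes.

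At the P stalk, which recruits the translation GTPases, 2 of 4 genes had BRG1 control peaks. RPLP0, which anchors the stalk, had a KO2 peak of 40 bp at percentile 11.3, 2 control peaks with the higher at 71.3, and none in KO1. The KO2 peak lay 250 bases before the start and the control peaks 5826 and 6400 bases after it, so they marked different places. The Flag-actin control had a peak of 60 bp at the same place as the BRG1 KO2 peak. RPLP2, a stalk protein, had 2 control peaks at 59.4 and 63.9 and none in either KO list. RPLP1, its partner in the stalk, and RPL12, at the stalk base, had no BRG1 peak in any list. RPL10A, the protein of the L1 stalk that escorts spent transfer RNA, had none either. RPL5 and RPL11, which bind 5S ribosomal RNA and, when free, the p53 regulator MDM2, had no BRG1 control peak. RPL5 had a KO2 peak of 180 bp at percentile 29.2, ending 1 base outside the gene.

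Near the peptidyl transferase centre, RPL3 and RPL8 were the only genes of the 45 with a BRG1 peak free of IgG in KO1. RPL3 had 1 peak in KO1 at percentile 16.9, 1 in KO2 at 8.62 and 3 in the control with the highest at 69.6. Both KO peaks lay within the strongest control peak, chr22:39310921-39311320, whose near edge lies 1562 bases beyond the 3′ end of the gene. The 2 control peaks at and before the RPL3 start, at percentiles 46.5 and 38.4, had no KO counterpart. RPL8 had 1 peak in KO1 at 20.7, 1 in KO2 at 8.62 and 2 in the control at 80.1 and 12.4. The KO peaks overlapped each other at the edge of the gene (chr8:144792391-144792540 in KO1 and chr8:144792501-144792600 in KO2) and overlapped no control peak. The stronger RPL8 control peak lay 1779 bases outside the span, on ZNF34, and overlapped a KO2 peak that lies beyond the 2 kb window. RPL10, the third gene of the group, had no peak in any of the 8 lists.

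At the exit tunnel, 7 of 8 genes had a BRG1 control peak, and 5 of 8 had one free of IgG, against 61.9% and 52.4% of coding genes. Of the 3 genes of its wall, RPL4 and RPL39 had the IgG sites alone, and RPL17 had 1 control peak at percentile 73.3 and none in KO1 or KO2. The RPL17 peak lay 5130 bases after its start, on the neighbouring C18orf32. Of the 5 genes of the rim, where nascent chains meet the signal recognition particle and chaperones, 4 had a control peak. RPL23A had 2 control peaks at 12.4 and 30.6, RPL31 had 1 at 42.4 and RPL35 had 2 at 49.8 and 36.1, and these 3 genes had none in either KO list. RPL26 had a KO2 peak at 50.05 and 2 control peaks at 37.8 and 23.6, at 3 different places. RPL19 had no peak in any list.

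Among the 27 other proteins of the subunit, 19 genes had a BRG1 control peak, 10 a KO2 peak and 3 a KO1 peak. The shares over all coding genes were 61.9%, 44.6% and 34.9%. Free of IgG, 17 genes had a control peak, 7 a KO2 peak and 0 a KO1 peak, against 52.4%, 28.3% and 15.7%. RPL13 had the highest control peak free of IgG of all 45 genes. It had no peak in KO1, 1 in KO2 at 52.5 and 3 in the control at 72.9, 52.0 and 85.0. The strongest RPL13 control peak covered 890 bp in the last part of the gene, another lay on the start, and the KO2 peak, centred at -876 bases from the start, overlapped none of them. RPL7 had none in KO1, 1 in KO2 at 30.5 and 2 in the control at 77.8 and 68.4. The KO2 peak of RPL7 lay beside the stronger control peak without overlap.

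At 5 of these 27 genes a KO2 peak free of IgG fell on the same place as a control peak. RPL41, the gene of the smallest ribosomal protein, had none in KO1, 2 in KO2 at 42.5 and 35.2 and 2 in the control at 77.8 and 75.5. The KO2 list had a peak on the control site that spans the 3′ end of RPL41 and reaches ZC3H10, and none on the one at its start. RPL18 had none in KO1, 1 in KO2 at 12.7 and 1 in the control at 75.9. RPL21 had none in KO1, 1 in KO2 at 29.8 and 1 in the control at 74.3. For RPL18 and RPL21 the shared site overlapped the promoter printed above. The RPL18 control peak and both RPL21 peaks also reached further upstream than the printed bases. RPL15, mutated in some patients with Diamond-Blackfan anaemia, had none in KO1, 1 in KO2 at 41.9 and 1 in the control at 53.2, on its start. RPL27A had none in KO1, 1 in KO2 at 42.5 and 3 in the control with the highest at 71.8, and the shared one, on its start, at 29.0. In all 5 genes KO1 had no peak.

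The remaining genes with a control peak and none in either KO list were RPL7A, RPL9, RPL13A, RPL27, RPL28, RPL30, RPL35A, RPL36A and RPL37A. Their highest control peaks ranged from percentile 3.68 at RPL35A to 63.9 at RPL13A. RPL13A, which in human monocytes also represses inflammatory messenger RNAs after release from the ribosome, had its peak on the printed promoter. RPL9 had its peak at 54.9, centred 372 bases after the start. RPL35A and RPL27, further Diamond-Blackfan genes, had theirs 451 and 752 bases outside the gene, at 3.68 and 24.4. RPL30, whose yeast protein limits the splicing of its own transcript, had 2 peaks at 7.79 and 29.0. The plot of control percentiles by what the KO lists held sets these genes beside those with a KO peak.

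**Figure D3:**
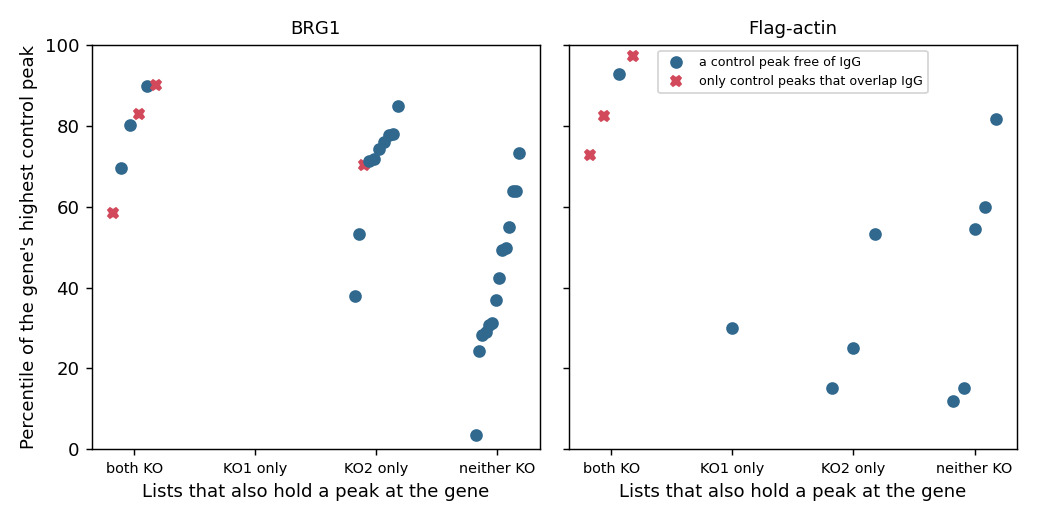
Percentile of the highest control peak of each gene within the control list (y axis), with genes grouped by which KO lists also hold a peak at the gene (x axis), for BRG1 (30 genes, left) and Flag-actin (13 genes, right). Each point is 1 gene; red crosses are genes whose control peaks all overlap IgG. For BRG1 the 14 genes with no KO peak run from 3.68 to 73.3. The points of RPL23 for BRG1, at 89.8, and of RPL6 for Flag-actin, at 92.8, stand at IgG sites. They are not crosses because these genes also have lower control peaks free of IgG.

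Genes with a BRG1 peak in the control and none in KO stood lower in the control list than those with a KO peak. The median of the highest control percentile was 39.7 over the 14 genes with none in either KO, against 81.5 over the 6 with a KO1 peak and 75.1 over the 16 with a KO2 peak. Over all coding genes the same medians were 43.5, 84.6 and 80.3, so the order was that of genes in general. IgG sites were not left out of these medians. The highest control peak of RPL4, RPL6, RPL23 and RPL38, which are in both KO groups, was the IgG site, as was that of RPL39 in the KO2 group. RPL17, at 73.3, was the highest of the 14 with none in either KO. When every list of the arm was shortened to its 23784 highest peaks, the counts were 6 in KO1, 13 in KO2 and 17 in the control, with 4 in the IgG list. The control share was then 37.8%, and over all coding genes the shares were 34.9% in KO1, 36.7% in KO2, 40.2% in the control and 32.5% in IgG. The genes with a control peak and none in either KO then numbered 5 (RPLP0, RPLP2, RPL17, RPL13A and RPL18), or 11.1%, against 7.71% of coding genes. RPLP0 and RPL18 were among these 5 only because their KO2 peaks, at percentiles 11.3 and 12.7, were cut from the shortened KO2 list. The counts of 30 and 14 were thus lower once the lists were shortened. Set against KO1 alone, 24 control genes had no peak, against a background of 29.1%, and set against KO2 alone 14 had none, against 21.4%.

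Peaks were also counted apart from genes. Large subunit genes held 6 BRG1 peaks in KO1, 18 in KO2 and 47 in the control, with 5 in IgG. Of the 47 control peaks 25 lay outside the gene span and 15 lay on another coding gene, counts that have no background here. Median widths were 95, 100 and 270 bp in KO1, KO2 and the control, and 60 bp in IgG. Peaks in all gene windows had median widths of 40, 50, 170 and 40 bp in the same lists. Overlap with IgG was 66.7% of the KO1 peaks (exact 95% interval 22.3 to 95.7), 27.8% of KO2 (9.69 to 53.5) and 10.6% of the control (3.55 to 23.1). For peaks in all gene windows these shares were 67.5%, 54.0% and 30.5%. The intervals cover counting error only. Of the 42 control peaks free of IgG, 1 overlapped a KO1 peak and 7 a KO2 peak, against 7.11% and 14.4% of such peaks in all gene windows. By gene, 16 of the 30 with a control peak also had a KO2 peak, against 65.4% of coding genes with a control peak. Of the 18 KO2 peaks 11 overlapped a control peak, and of the 13 free of IgG 6 did. These shares were not taken over peaks at all coding genes. At RPLP0, RPL7, RPL8, RPL13 and RPL26 the KO2 peak in the window overlapped no control peak.

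Of the 36 BRG1 control peaks at genes with an annotated start, 16 were centred within 500 bases of a start. In KO2 6 of 14 were, in KO1 0 of 4 and in IgG 0 of 4. The same shares were not taken over peaks at all coding genes, so these counts have no background. On the promoter window, from 250 bases before to 50 after a start, BRG1 had a peak at 0 of 38 genes in KO1, 5 in KO2 and 14 in the control, with 0 in IgG. The backgrounds were 3.42%, 9.68% and 25.7% of coding genes, and 0.631% in IgG. The 5 in KO2 were RPLP0, RPL15, RPL18, RPL21 and RPL27A. The 14 in the control were RPLP2, RPL3, RPL31, RPL35, RPL13, RPL13A, RPL15, RPL18, RPL21, RPL27A, RPL28, RPL36A, RPL37A and RPL41. A control promoter peak with none in either KO was found at 10 genes, or 26.3%, against 17.5% of coding genes. Of the genes hit in the control that was 10 of 14, against 68.3% of all genes hit. At RPLP2, RPL35, RPL15, RPL18, RPL27A and RPL36A the promoter peak also overlapped another coding gene (PIDD1, ARPC5L, NKIRAS1, SPHK2, TRIM66 and BTK), and which gene it belongs to cannot be told apart.

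**Figure D4:**
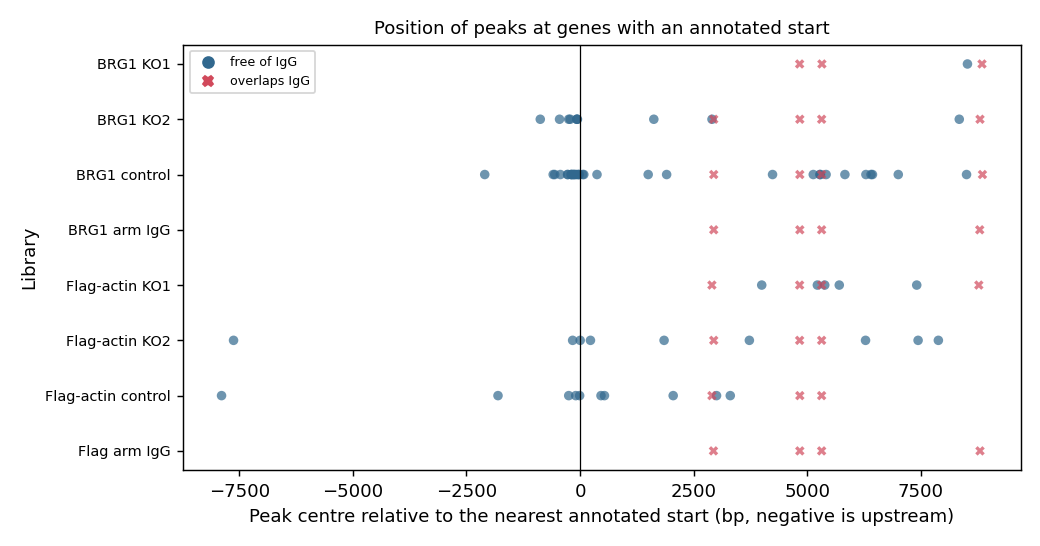
Distance in bp from the nearest annotated start to the centre of each peak (x axis, negative upstream) at the 38 large subunit genes with an annotated start, in each library (rows). Blue points are peaks free of IgG and red crosses peaks that overlap IgG; 16 of 36 BRG1 control peaks lie within 500 bases of a start, and the crosses recur at the same distances in most rows.

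As a share of all signal in a list, peaks at the 45 genes held 0.00814% ± 0.00432 (SD, n = 2) in the BRG1 KO lists, 0.0311% in the control and 0.00799% in the IgG list. The control share was above both KO shares, which were 0.00508% in KO1 and 0.0112% in KO2. Without peaks that overlap IgG the shares were 0.0256% in KO1, 0.0972% in KO2 and 0.140% in the control. In covered length, the peaks at these genes held 610 bp in KO1, 2220 bp in KO2 and 14110 bp in the control. The whole lists covered 1.47, 2.48 and 9.29 Mb. As shares of that length the peaks at these genes held 0.0416% in KO1, 0.0894% in KO2 and 0.152% in the control.

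Flag-actin peaks were present at nearly equal numbers of large subunit genes in KO and control cells. The 4 genes with a peak in all 3 lists, RPL4, RPL6, RPL23 and RPL39, or 8.89%, against 28.1% of coding genes, held IgG sites. The counts were 12 in KO1, 12 in KO2 and 13 in the control, with 5 in the IgG list. Over all coding genes 39%, 47.4% and 50.3% had a peak, and 31.4% in IgG. Over the short coding genes the shares were 17.4%, 25.5%, 34.7% and 11.6%. The KO mean was 26.7% ± 0 of the genes (SD, n = 2) and the control value 28.9% (n = 1), a difference of -2.22 percentage points, or 1 gene. Of the 12 genes in each KO list, 8 were the same, and 5 of those 8 held IgG sites. With IgG overlaps removed 7 genes had a peak in KO1, 10 in KO2 and 10 in the control, against 23.8%, 33.4% and 38.9% of coding genes. No gene had a peak free of IgG in all 3 lists, against 10.1% of coding genes.

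In the Flag-actin control alone, 5 genes had a peak (11.1%, against 10.7% of coding genes). RPL13 had 2 control peaks at 81.7 and 78.5, on its start and on the first part of the gene, and none in KO1 or KO2. RPL28 had 1 control peak at 59.997, 1622 bases before the gene on TMEM238, and none in the KO lists. RPLP0 had 1 control peak at 54.4, a block of 60 bp on its promoter window, and none in the KO lists. These 3 genes still had a control peak and none in KO when each list was shortened to 20303 peaks, against 7.81% of coding genes. The remaining control peaks stood low in the control list, RPLP2 at 15.3 and RPL11 at 11.9. RPL13 was the only one of the 5 above percentile 80.

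Peaks in both KO lists and none in the control were found at 4 genes, or 8.89%, against 3.54% of coding genes. RPL7 had 1 peak in KO1 at 52.5, 1 in KO2 at 19.8 and none in the control. RPL14 had 1 in KO1 at 2.63, 1 in KO2 at 37.9 and none in the control. RPL35 had 1 in KO1 at 30.1, 1 in KO2 at 19.2 and none in the control. In all 3 the KO1 and KO2 peaks lay at different places and did not overlap. RPL38 had the IgG site in KO1 and a separate peak at 28.8 in KO2. The Flag-actin control list began at a higher signal than the KO lists, and in lists of equal length 0 genes had this pattern, against 3.15% of coding genes.

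The other Flag-actin peaks were scattered over single lists or separate places. A control peak with a peak in KO1 alone was found at 1 gene and with a peak in KO2 alone at 3, against 3.23% and 8.24% of coding genes. KO1 alone had a peak at 3 genes and KO2 alone at 1, against 4.12% and 7.48%. RPL12 had 1 peak in KO1 at 37.8, none in KO2 and 1 in the control at 29.9, the first beyond its 3′ end and the second inside the gene. RPL8 had none in KO1, 1 in KO2 at 52.3 and 1 in the control at 15.3, at separate places. RPL18 had none in KO1, 1 in KO2 at 49.9 and 1 in the control at 53.3, both inside the gene without overlap. RPL32 had none in KO1, 1 in KO2 at 16.4 beyond its 3′ end and 1 in the control at 25.0 on its start. At none of these genes did a KO peak overlap the control peak. RPL6 had, besides its IgG site, a KO2 peak at 24.1 and a control peak at 69.6 on PTPN11, close together without overlap. RPL23A (6.31), RPL34 (24.4) and RPL37A (50.4) had a peak in KO1 alone. RPL7A had 2 peaks in KO2 alone, at 35.5 and 32.2, and RPL4 had a KO2 peak free of IgG at 13.9. Of the 11 control peaks free of IgG at large subunit genes, 0 overlapped a peak of KO1 and 0 a peak of KO2, against 2.23% and 4.47% of such peaks in all gene windows.

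Flag-actin peaks within 500 bases of a start numbered 0 of 9 in KO1, 3 of 12 in KO2, 4 of 13 in the control and 0 of 4 in IgG. These shares were not taken over all coding genes either. On the promoter window Flag-actin had a peak at 0 of 38 genes in KO1, 2 in KO2 and 3 in the control, with 0 in IgG, against 1.38%, 2.49%, 3.84% and 0.656% of coding genes. The 2 in KO2 were RPL35 and RPL7A, and the 3 in the control RPLP0, RPL13 and RPL32. The 3 control genes had no promoter peak in either KO, against 3.22% of coding genes with that pattern. In signal, peaks at the 45 genes held 0.0131% ± 0.00326 (SD, n = 2) of the KO lists, 0.0272% of the control list and 0.00962% of the IgG list. Without peaks that overlap IgG the shares were 0.0467% in KO1, 0.0509% in KO2 and 0.0489% in the control, a difference of -9.5e-05 percentage points. Without peaks of 100 bp or less the KO value stood 0.00211 percentage points above the control.

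Both antibodies had a control peak at 10 large subunit genes, or 22.2%, against 40.5% of coding genes. With IgG overlaps removed these were RPLP0, RPLP2, RPL8, RPL13, RPL18 and RPL28, or 13.3%, against 26% of coding genes. The BRG1 and Flag-actin control peaks overlapped at 2 of these genes, on the RPL13 start and inside RPLP2. At RPLP2 the BRG1 peak reached SNORA52 and the Flag-actin peak did not. The Flag-actin KO2 list had 3 peaks free of IgG that overlapped BRG1 control peaks, at RPL7, RPL8 and RPL35. In 9 genes (RPLP1, RPL10A, RPL10, RPL19, RPL22, RPL24, RPL29, RPL36 and RPL37) no list held a peak, which is 20% of the 45, against 19.6% of coding genes.

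Related gene groups were counted the same way. Of 33 small subunit protein genes, 5 had a BRG1 peak in KO1, 5 in KO2 and 20 in the control, and 13 had a control peak with none in either KO. For large subunit genes the corresponding counts, over 45, were 6, 17, 30 and 14. Of 48 assembly factors of the 60S subunit, 9, 18 and 36 had a BRG1 peak in KO1, KO2 and the control, with 17 in the control alone. Of 49 mitochondrial large subunit genes, 7, 7 and 27 did, with 20 in the control alone. For Flag-actin the counts in KO1, KO2 and the control were 6, 7 and 8 of the small subunit genes, and 17, 25 and 18 of the assembly factors. They were 10, 11 and 15 of the mitochondrial genes. In each of these 3 groups fewer genes had a BRG1 peak in either KO list than in the control. The same order was found at the large subunit genes and over all coding genes. Over all coding genes the BRG1 shares were 34.9% in KO1, 44.6% in KO2 and 61.9% in the control, with 18.5% in the control alone. For Flag-actin the all-gene shares were 39%, 47.4% and 50.3%. The groups share libraries, differ in gene length and were not tested against each other.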

How the data were processed

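Per the submitters' processing notes, reads were placed on hg38. The notes name, without roles or settings, SEACR, MACS2, bedtools 2.30.0, deepTools, SAMtools, BWA, FastQC 0.12.0 and Trim Galore 0.4.5. The deposited files were 8 peak lists, 1 per library, and column 4 holds the total signal of each peak; its scaling is not stated in the sources used here. Peaks outside chromosomes 1 to 22, X and Y, 2.11% to 4.04% of a list, were dropped. An overlap of 1 bp counted; the work used pandas 2.3.3, numpy 2.4.6 and scipy 1.17.1 in Python 3.11.15, and the overlap code was tested on simulated intervals. Gene spans and promoter windows came from RefSeq (GRCh38.p14); promoter windows cover 38 of the 45 genes, and RPL5, RPL7, RPL8, RPL23, RPL23A, RPL30 and RPL37 were not analysed there. The genes and lists were chosen with earlier results of these data known. All 45 genes are accounted for. Values per library are given for the 10 genes highest in the BRG1 control, for genes with a peak free of IgG in a BRG1 KO list or in any Flag-actin list, and for IgG sites; the remaining genes are given by name and range. No test was run, since each antibody has 1 control library, and nothing shows whether the KO libraries are separate cultures. Alternatives changed the window, the overlap, the threshold, the peak width, the list length and the libraries used; the promoter window was added after the data were seen. A further planned list of related genes is not reported here.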

Additional observations from a re-analysis of the deposited data

Results flagged for a closer look

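RPL35, whose protein sits at the rim of the exit tunnel, went opposite ways with the 2 antibodies in the full lists, and this difference was not tested. For BRG1, KO1 and KO2 had no peak and the control had 2, at chr9:124862041-124862250 and chr9:124862271-124862510, which also lie on ARPC5L. For Flag-actin, KO1 had 1 peak at chr9:124857871-124858050, at the other end of the gene on WDR38, KO2 had 1 at chr9:124861991-124862250, and the control had none. The Flag-actin KO2 peak overlapped the first BRG1 control peak. In lists of equal length the pattern was absent with both antibodies. There RPL35 had no BRG1 control peak, and for Flag-actin it had a peak in KO1 and none in KO2 or the control. The Flag-actin control list starts at a higher total signal than the KO lists, and the part of that in the pattern of the full lists was not tested further.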

How the results depend on the processing

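No paired analysis was possible because each antibody has 1 control library, so KO1 and KO2 have no control partners and no test was run. By set margins, 61 of the recomputed values stayed close to the reported ones, 30 moved and 1 reversed. The margin was a factor of 1.5 for counts and the SD of the KO libraries for KO minus control differences. For control minus IgG shares it was 14.5 percentage points for BRG1 and 13.97 for Flag-actin. For BRG1 shares the SD was 17.3 points, so -28.9 and -53.3 counted as close to -41.1. For Flag-actin shares it was 0, so any change counted as moved. The tally is therefore no even measure of closeness. The cause of a change was not tested except where the alternative's construction shows it. For BRG1, lists of equal length gave a KO minus control share of -16.7 percentage points, 5 genes with a control peak alone, a signal difference of -0.0162 percentage points and a control minus IgG share of 28.9. The control minus IgG share, 55.6 as reported, was 31.1 over the gene span, 37.8 among peaks above the median signal of each list and 36.8 on the promoter window. The signal difference was -0.0783 without IgG overlaps and -0.0396 for peaks wider than 100 bp. The count of genes with peaks in KO1 and KO2 but not the control was 1 within 1 kb of gene ends. Leaving out 1 KO library gave 0 to 1 of these, and 14 to 24 genes with a control peak alone. For Flag-actin the share difference was -5.56 over the gene span and among peaks above the median signal of each list, -4.44 with 5 kb windows and for wide peaks, -6.67 within 1 kb of gene ends, -3.33 without IgG overlaps, -1.11 in lists of equal length and -5.26 on the promoter window. Genes with a control peak alone numbered 3 in lists of equal length and 3 on the promoter window, and 6 to 8 when 1 KO library was left out. Genes with peaks in both KO lists alone numbered 2 over the gene span and within 1 kb of gene ends, 0 in lists of equal length, among peaks above the median signal and on the promoter window, and 5 to 7 when 1 KO library was left out. The Flag-actin signal difference was -9.5e-05 without IgG overlaps and reversed to 0.00211 for peaks wider than 100 bp. Depth is unknown, so a missing peak means only that none passed the threshold of its list.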

Other observations

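Large subunit protein genes have left many processed copies in the genome, and peaks at these were rare. Of 1256 pseudogenes named after the 45 genes, 9 had a BRG1 peak in KO1, 13 in KO2 and 27 in the control, with 7 in the IgG list. The shares were 0.717%, 1.04%, 2.15% and 0.557%, against 2.21%, 3.05%, 4.82% and 2.47% of the 15589 other pseudogenes. For Flag-actin 13 had a peak in KO1, 27 in KO2 and 30 in the control, with 5 in IgG. Those shares were 1.04%, 2.15%, 2.39% and 0.398%, against 3.07%, 4.52%, 5.37% and 2.39% of the others. The copies are shorter, with a median length of 539 bp against 776 bp, and the part of length or of reads that map to several copies was not tested.

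Of the 19 large subunit genes that host a small nucleolar RNA, 3 had a BRG1 peak in KO1, 8 in KO2 and 14 in the control. The IgG list had a peak at 3 of them. Of the 26 that host none, 3, 9 and 16 did, with 2 in IgG. For Flag-actin the hosts had 5, 5 and 8, and the others 7, 7 and 5. Of the 27 genes with another coding gene inside the window, 2 had a BRG1 peak in KO1, 10 in KO2 and 20 in the control, with 2 in IgG. Of the 18 without such a neighbour, 4, 7 and 10 did, with 3 in IgG. Over all coding genes, not split in these ways, the BRG1 shares were 34.9%, 44.6% and 61.9%, and 33.2% in IgG. For Flag-actin they were 39%, 47.4% and 50.3%, and 31.4% in IgG.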
